A study of Mus musculus with 4 samples.

Results

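Collagens V and VI were followed in satellite cells, the stem cells that regenerate mouse skeletal muscle, with and without the calcitonin receptor. The members were the 3 collagen V chain genes Col5a1, Col5a2 and Col5a3 and the 3 collagen VI chain genes Col6a1, Col6a2 and Col6a3, 6 of the 18193 genes that the platform's annotation names. They were matched by gene symbol, and 11 probe sets carried 1 of these symbols alone. Calcr-cKO cells (cKO hereafter) were Calcr flox/flox and control cells were Calcr+/+. Both groups carried Pax7-CreERT2 on 1 allele (Pax7Cre/+) and the reporter Rosa-YFP/YFP and received tamoxifen, so recombination was limited to cells with an active Pax7 locus. Mice were 10 weeks old, and YFP+ cells were sorted 2 weeks after tamoxifen without culture. There were 2 biological replicates of cKO and 2 of control cells, with 1 array for each, and this number limits the precision. The sources used here do not say how many mice each replicate pooled, so p-values measure only the spread between these samples.

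Collagen chains wind in threes into a triple helix. Collagen V is a minor fibrillar collagen that assembles together with collagen I, and satellite cells under Notch signalling have been reported to make it as a ligand that acts on the calcitonin receptor to hold them quiescent. Collagen VI is built from an alpha1, an alpha2 and an alpha3 chain and forms beaded filaments next to basement membranes. It is part of the satellite cell niche, and defects in its chains cause inherited muscle disease in humans. The comparison therefore asks whether loss of the receptor goes with a different transcript level of its reported ligand and of a neighbouring niche collagen.

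Values are MAS5 signals, on which 1 probe set can be compared between arrays but not with another probe set. Log2 differences are of log2(signal + 1), cKO minus control, with a standard error (SE) from limma. The satellite cell markers Pax7 (2170 and 2434 in cKO cells, 2319 and 3647 in control cells) and Myf5 (1878 and 2843 in cKO cells, 2028 and 3002 in control cells) were bright on every array. Median signals of the arrays ran from 57.8 to 70.4. In these bulk samples, fewer cells of a type and less RNA per cell cannot be told apart.

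Calcr, the deleted receptor gene, was separated by genotype, and its reported ligand was not. Calcr read 568 and 684 in cKO cells and 1268 and 1424 in control cells. The groups did not overlap, and cKO was the lower (log2 difference -1.11, SE 0.25, limma adjusted p = 0.99999). No source used here says whether this probe set reads the deleted exons. For collagens V and VI, the cKO and control arrays overlapped for 11 of 11 probe sets, so 0 of them were separated by genotype. Of all 22519 probe sets tested, 21.4% were separated, in either direction. Likewise 0 of the 11 had an adjusted limma p under 0.05, as did 0 of all probe sets tested (0%), and 0 of the 11 had an unadjusted p under 0.05, against 0.724% of all. With 2 samples a group, an exact permutation test cannot give a 2-sided p below 0.333.

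**Figure D1:**
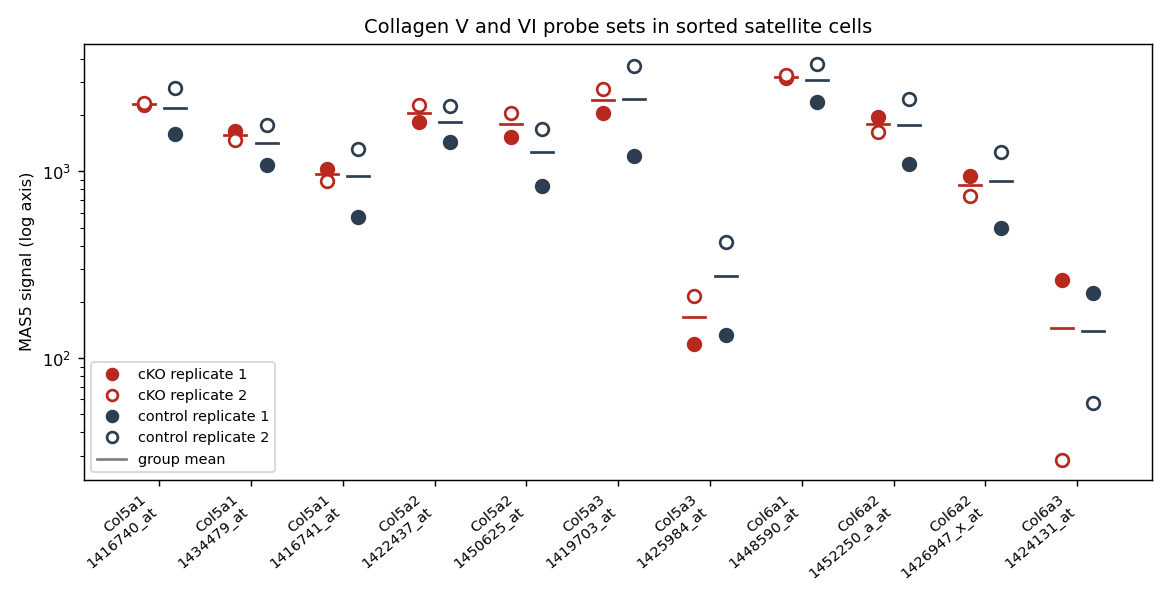
MAS5 signal (log axis) of the 11 collagen V and VI probe sets, with cKO arrays in red left of control arrays in dark blue, replicate 1 filled, replicate 2 open and a bar at each group's mean. For 7 probe sets both cKO points lie between the control points, which held for 23.4% of all probe sets tested. Col6a3 is the probe set on which both filled points lie far above both open ones. Heights of different probe sets are not comparable.

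Among the collagen V chains, Col5a1 encodes alpha1(V), present in most collagen V molecules. Its brightest probe set (1416740_at) read 2261 and 2322 in cKO cells and 1593 and 2785 in control cells. The cKO values were close together and lay inside the wider control pair, with a log2 difference of 0.12 (SE 0.27, 95% interval -0.52 to 0.76). Its other probe sets had the same order of groups. The probe set 1434479_at read 1641 and 1480 in cKO cells and 1085 and 1761 in control cells, a difference of 0.17 (SE 0.28). The dimmest, 1416741_at, read 1035 and 889 in cKO cells and 571 and 1323 in control cells, a difference of 0.14 (SE 0.40). All 3 probe sets thus placed both cKO arrays between control replicate 1, which was lowest, and control replicate 2, which was highest.

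Col5a2 encodes alpha2(V), the partner of alpha1(V) in the common heterotrimer. On 1422437_at it read 1847 and 2269 in cKO cells and 1439 and 2236 in control cells. Control replicate 1 was again lowest, and cKO replicate 2 was level with control replicate 2 (log2 difference 0.19, SE 0.26, 95% interval -0.41 to 0.80). On 1450625_at it read 1525 and 2050 in cKO cells and 838 and 1690 in control cells, for a difference of 0.57 (SE 0.35, 95% interval -0.25 to 1.39, limma adjusted p = 0.99999). This was the largest of the 11 differences relative to its SE, and the interval still allows a difference in either direction. Col5a2 was also the gene for which cKO was higher both between the arrays numbered 1 (0.36 and 0.86 on the log2 scale for the 2 probe sets) and between those numbered 2 (0.02 and 0.28).

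Col5a3 encodes alpha3(V), a chain of restricted expression, and varied most among the bright members. Its brighter probe set (1419703_at) read 2058 and 2769 in cKO cells and 1212 and 3657 in control cells. The control replicates differed 3.02-fold and the cKO replicates 1.35-fold. The log2 difference of 0.18 (SE 0.46, 95% interval -0.90 to 1.27) was small beside that spread. The dimmer probe set (1425984_at) read 119 and 214 in cKO cells and 133 and 419 in control cells, a difference of -0.56 (SE 0.59). The signs of the 2 Col5a3 probe sets thus disagreed, while both read control replicate 2 highest, so a direction for Col5a3 is not given.

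Of the collagen VI chains, Col6a1, which encodes alpha1(VI), read 3144 and 3278 in cKO cells and 2365 and 3768 in control cells. Its log2 difference had the smallest SE of the 11 probe sets (0.10, SE 0.23, 95% interval -0.43 to 0.64). Col6a2, which encodes alpha2(VI), read 1961 and 1631 in cKO cells and 1097 and 2436 in control cells on 1452250_a_at, a difference of 0.13 (SE 0.36). On its other probe set, 1426947_x_at, whose suffix marks probes that may also bind other transcripts, it read 942 and 739 in cKO cells and 496 and 1270 in control cells, a difference of 0.07 (SE 0.44). For both genes each probe set again placed both cKO arrays inside the control pair.

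Control replicate 1 was the lowest of the 4 arrays on 9 of the 11 probe sets, against 25.5% of all probe sets tested, and control replicate 2 was the highest on 8, against 34.3%. Both held for 7 of the 11, against 14.1% of all probe sets tested and 18.4% of those among the brightest 10% on the array. The control replicates were at least 1.5-fold apart, in either direction, on 11 of the 11, against 30.8% of all and 14.3% of the brightest 10%, and replicate 2 was the higher on 10. The cKO replicates were that far apart on 2 of the 11, against 27.5% of all and 13.2% of the brightest 10%. These patterns were looked for after the members' values were seen and are descriptions, and several probe sets share a gene. On its brightest probe set, each of the 5 genes other than Col6a3 had control replicate 1 lowest. Its control replicates were further apart than its cKO replicates, at 2 samples a group. The order of the cKO replicates differed between these genes. Col6a2 fell from replicate 1 to replicate 2, while Col5a2 and Col5a3 rose.

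The sign of the genotype difference turned with the arrays compared. Between cKO replicate 1 and control replicate 1, cKO was higher on 10 of the 11 probe sets, against 55.2% of all tested and 61.2% of the brightest 10%. Between cKO replicate 2 and control replicate 2 it was higher on 2, against 35.1% and 27.6%, so these counts lean the way that probe sets in general do. Both cKO higher between the arrays numbered 1 and cKO lower between those numbered 2 held for 8 of 11, against 39.1% of all probe sets tested and 47.3% of the brightest 10%. Col6a2 shows it most plainly, with 0.84 between the arrays numbered 1 and -0.58 between those numbered 2 on 1452250_a_at. For Col5a1 the same differences were 0.50 and -0.26 on its brightest probe set, and for Col6a1 0.41 and -0.20.

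**Figure D2:**
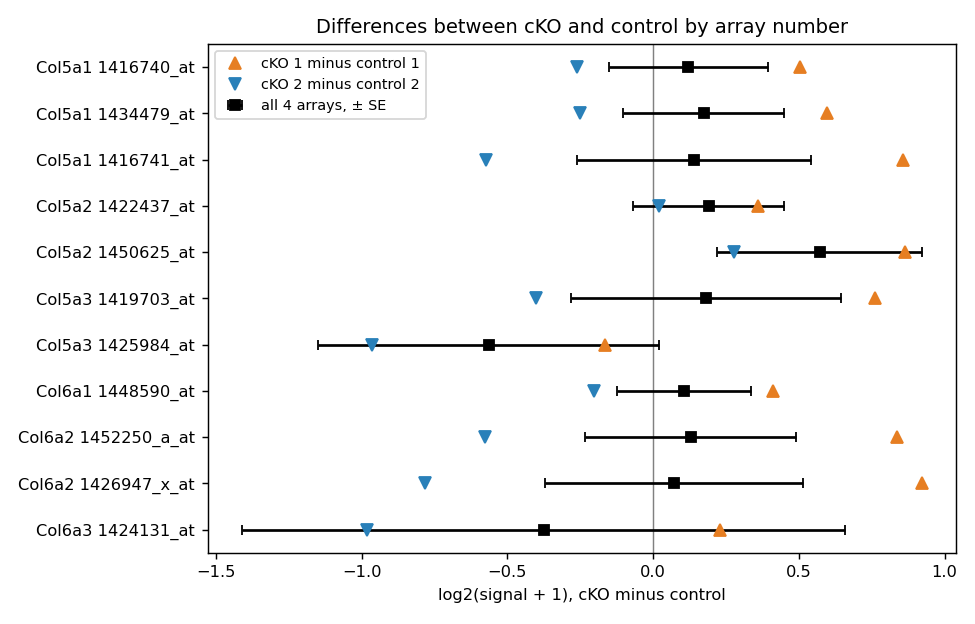
Difference in log2(signal + 1), cKO minus control, for each probe set: squares with bars give the value over all 4 arrays ± SE, upward triangles cKO replicate 1 minus control replicate 1, and downward triangles cKO replicate 2 minus control replicate 2. Triangles fall on opposite sides of 0 for Col5a1, Col6a1, both Col6a2 probe sets, Col6a3 and the brighter Col5a3 probe set, and on the positive side for both Col5a2 probe sets.

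Col6a3, which encodes the large alpha3(VI) chain that completes the collagen VI molecule, followed another order. It read 261 and 28.5 in cKO cells and 223 and 57.1 in control cells. Replicate 1 was bright and replicate 2 dim in both genotypes, 8.89-fold apart in cKO cells and 3.85-fold apart in control cells, and both dim values were below the signal of 63.9 at which probe sets were filtered. The log2 difference between genotypes was -0.38 (SE 1.04, 95% interval -2.80 to 2.05). This SE includes that spread between replicates, whose direction both genotypes shared. In a fit that also took account of the replicate number, which the labels do not pair, the SE of the difference was 0.41. Replicate 1 was at least 2-fold above replicate 2 in both groups on 2.86% of all probe sets tested, and for 312 of the 10140 genes.

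The summed signals of vessel, Schwann and tendon cell markers ran the same way as Col6a3, though not every single marker did. Of the endothelial list, 12 of 13 measured members that passed the filter were at least 2-fold brighter on replicate 1 in both groups, and the list's summed signal over 14 measured genes was 9284 and 1440 in cKO cells and 10043 and 1273 in control cells. Its defining markers Cdh5 (1060 and 110 in cKO cells, 1044 and 79.7 in control cells), Pecam1 and Kdr were low on replicates 2 but not at 0. Of the pericyte and smooth muscle list, 7 of 11 did the same, and its summed signal over 12 genes was 18107 and 6758 in cKO cells and 16068 and 8736 in control cells. Among them were Pdgfrb (946 and 150 in cKO cells, 1012 and 150 in control cells), Rgs5 and Kcnj8. Other members lacked that order in control cells, where Tagln read 1104 and 2013, Vtn 813 and 871 and Acta2 4288 and 4190. The Schwann cell list summed to 1658 and 256 in cKO cells and 1681 and 481 in control cells over 6 genes, with 1 of the 3 that passed the filter at least 2-fold brighter on replicate 1 in both groups. This was Mbp, a myelin protein gene (1194 and 55.4 in cKO cells, 1249 and 96.2 in control cells), which made up most of the sum on replicates 1. Ngfr, which also passed, read 223 and 125 in cKO cells but 98.5 and 252 in control cells. The tendon cell list summed to 798 and 247 in cKO cells and 648 and 301 in control cells over 6 genes, and 2 of the 2 that passed, Fmod and Thbs4, had that order. Its first-listed markers were all below the filter. Of these, Mkx went the other way (25.9 and 83.3 in cKO cells, 21.4 and 58.0 in control cells), and Scx was near level in control cells (55.0 and 48.8). The order of Col6a3 was therefore shared by some markers of several cell types. The part of these cells in the Col6a3 values was not tested.

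Marker lists were also set beside the 5 bright members. The satellite cell list summed to 27916 and 29651 in cKO cells and 27970 and 35522 in control cells over 12 genes, highest on control replicate 2. That array was the highest for 10 of the 12 genes, against 39.8% of all genes tested. Control replicate 1 was also the lowest for 4 of the 12, against 17.7% of all genes with both. The fibro-adipogenic list, which holds the collagen genes Col1a1 and Col3a1, summed to 17065 and 19481 in cKO cells and 14861 and 20002 in control cells over 11 genes, lowest on control replicate 1 and highest on control replicate 2. That order was found in 2 of its 8 genes that passed the filter, Col1a1 and Col3a1. Without them the sum was 6688 and 7826 in cKO cells and 7294 and 7889 in control cells, with cKO replicate 1 lowest. Its first-listed marker Pdgfra was dim on all arrays (50.9 and 58.2 in cKO cells, 40.8 and 36.0 in control cells), while Dpt read 3796 and 3066 in cKO cells and 3634 and 4949 in control cells. The leukocyte list summed to 1539 and 583 in cKO cells and 1128 and 2536 in control cells over 12 genes, also highest on control replicate 2, and its first-listed marker Ptprc read 28.3 and 2.23 in cKO cells and 21.6 and 39.5 in control cells. The muscle fibre list summed to 1692 and 2670 in cKO cells and 3284 and 1405 in control cells over 8 genes, highest on control replicate 1. The part of any of these cells in the collagen values was not tested.

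**Figure D3:**
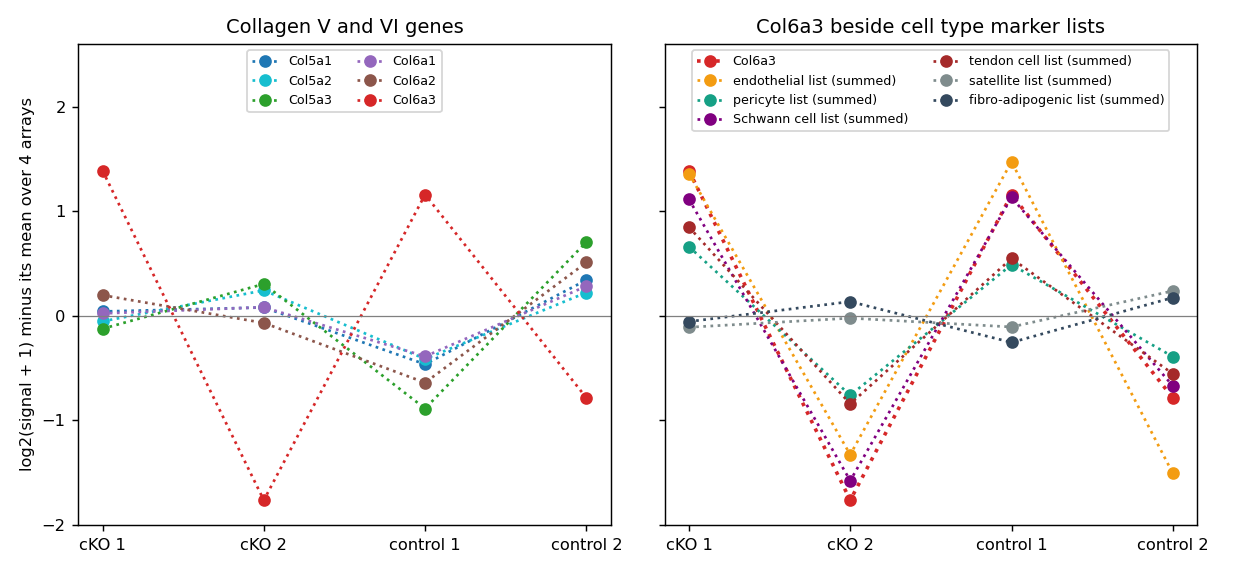
Left, log2(signal + 1) of each member gene's brightest probe set minus its mean over the 4 arrays; right, the same for Col6a3 and for the summed signal of 6 marker lists, with dotted lines that only join points of 1 gene or list. The 5 genes other than Col6a3 are lowest on control 1, while Col6a3 and the endothelial, pericyte, Schwann cell and tendon cell lists are high on cKO 1 and control 1 and low on cKO 2 and control 2.

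The genes most like each member over the 4 arrays were found by the root mean square (RMS) difference of log2 values centred per probe set. For Col6a3 they were S1pr1 at 0.05, Myl9 at 0.08 and Lama4 at 0.14, and 5 of the other genes came within 0.2. S1pr1 read 559 and 61.4 in cKO cells and 463 and 114 in control cells. For Col5a3 the nearest were Washc3, Abr and Dcxr (0.04 to 0.06), with 91 genes within 0.2. For Col5a1, Col5a2, Col6a1 and Col6a2 the same distance held 1613, 1618, 2182 and 467 genes. Their nearest were Crat, Ehmt2 and Thyn1 for Col5a1, Zfp553, H1f10 and Timm21 for Col5a2, Odr4, Mef2d and Mrpl52 for Col6a1, and Rfc2, Aldh18a1 and Tmem134 for Col6a2. A fixed distance holds fewer genes for a profile that varies more, and the members' log2 range over the arrays ran from 0.66 for Col5a2 to 3.15 for Col6a3, so these counts are not compared between members. Among the members themselves, Col5a1 and Col6a1 were nearest (RMS difference 0.05). Col5a3 was 0.29 to 0.35 from the other members apart from Col6a3, and Col6a3 was 1.48 to 1.80 from every other member.

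The sequence upstream of the members' starts was read for motifs, since 5 of them had control replicate 1 lowest on their brightest probe sets and Col6a3 did not. RefSeq promoters of GRCm38.p6 were matched by symbol for 5 of the 6 genes, as 6 entries, with none for Col5a2. The 250 bases before each start were searched on both strands. The core of the Notch factor RBPJ (TGGGAA) was found in 0 of 6 entries, against 21.6% of 32851 promoters in the table. The GC box (GGGCGG) was found in 4 of 6, against 32.7%, with matches upstream of Col5a1, Col5a3 and Col6a2 and none upstream of Col6a1 or Col6a3. The cAMP response core (TGACG) was in 0 of 6 (17.8% of all), and the TEAD core (GGAATG) in 1 of 6 (12.6% of all), upstream of Col6a2. Bases were 76.4% G or C upstream of Col5a1, 62.8% upstream of Col5a3, 56% upstream of Col6a1, 64.4% and 59.2% upstream of the 2 Col6a2 starts and 57.2% upstream of Col6a3, against a median of 52.4%. Col6a1, the member nearest to Col5a1 in array profile, had no GC box and a share of G or C close to that of Col6a3. A link between these features and the array profiles was not tested. A match describes these letters and no binding, and the absence of one says only that the letters are not in this window. Shown are 2 chains of collagen V, with GC boxes on either strand in capitals, and Col6a3, which has none, each 5′ to 3′ on the gene's own strand.
Col5a1, chr2:27886175-27886424 on the plus strand: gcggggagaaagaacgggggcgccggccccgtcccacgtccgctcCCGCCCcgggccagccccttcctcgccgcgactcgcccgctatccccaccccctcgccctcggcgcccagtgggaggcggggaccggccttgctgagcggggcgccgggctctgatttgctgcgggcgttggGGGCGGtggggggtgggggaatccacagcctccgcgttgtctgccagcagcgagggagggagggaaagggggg
Col5a3, chr9:20815068-20815317 on the minus strand: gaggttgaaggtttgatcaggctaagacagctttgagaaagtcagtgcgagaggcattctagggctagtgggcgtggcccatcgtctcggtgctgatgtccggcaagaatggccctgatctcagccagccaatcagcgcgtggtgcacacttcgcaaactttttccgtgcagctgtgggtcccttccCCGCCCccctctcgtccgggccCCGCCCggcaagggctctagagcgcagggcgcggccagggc
Col6a3, chr1:90843972-90844221 on the minus strand: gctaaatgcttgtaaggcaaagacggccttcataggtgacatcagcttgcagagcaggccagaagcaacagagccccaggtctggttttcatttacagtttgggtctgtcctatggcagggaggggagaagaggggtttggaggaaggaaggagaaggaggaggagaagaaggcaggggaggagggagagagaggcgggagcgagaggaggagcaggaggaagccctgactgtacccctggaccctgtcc

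Genes that collagens V and VI work with were described from lists, each gene by its brightest probe set that passed the filter, and 0 of them passed limma at an adjusted p of 0.05. Over all 10140 genes tested, the arrays were separated with cKO higher in 8.53% and with cKO lower in 12.1%, and the median log2 difference was -0.04. This balance turned with scaling, to 11.7% and 9.33% after quantile normalization and to 12% and 7.15% with arrays centred on their median. The median turned to 0.02 and 0.05. Of the other fibrillar and fibril-associated collagens, 6 of 11 passed the filter, of which 4 were higher in cKO and 2 lower (median 0.06). Of these 6, only Col1a2, the alpha2 chain of collagen I, was separated, at 1558 and 3023 in cKO cells and 1072 and 1288 in control cells (log2 difference 0.88, SE 0.32). Col1a1, its alpha1 partner, read 3851 and 4712 in cKO cells and 2148 and 4779 in control cells (0.41, SE 0.34). Col3a1, of collagen III, read 6526 and 6944 in cKO cells and 5419 and 7335 in control cells (0.09, SE 0.16), in the order of arrays seen for Col5a1. Col16a1 differed by -0.49 (SE 0.44). Of 3 listed collagen VI chain genes outside the members, 2 had a probe set of their own. These, Col6a4 and Col6a5, read at most 20.6 on any array.

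Matrix proteins that bind these collagens were split, with 7 of 14 higher and 7 lower (median 0.01). Thrombospondin 2 (Thbs2), which shapes collagen fibrils, read 613 and 400 in cKO cells and 846 and 960 in control cells (-0.86, SE 0.31). Tenascin X (Tnxb), a fibril-binding protein, read 350 and 274 in cKO cells and 441 and 674 in control cells (-0.82, SE 0.35). Perlecan (Hspg2), of basement membranes, was higher by less (0.30, SE 0.22), as was Matn2 (0.17, SE 0.18). The arrays of Thbs2, Tnxb and Hspg2 were separated. Hspg2 at 2063 and 2102 in cKO cells and 1453 and 1962 in control cells had control replicate 1 lowest, as the bright members did.

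Receptors for collagen had 5 of 12 higher and 7 lower (median -0.19, which includes Calcr). Of the 12, 3 were separated, all lower (25%, against 12.1% of all genes tested). Calcr, the deleted gene, was among them, so this share does not describe the other receptors alone. Besides Calcr these were the endocytic collagen receptor gene Mrc2 (471 and 324 in cKO cells, 481 and 988 in control cells, -0.82, SE 0.41) and the discoidin receptor gene Ddr1 (1931 and 1898 in cKO cells, 2098 and 2625 in control cells, -0.29, SE 0.19). After quantile normalization 3 were separated and lower (25%, against 9.33% of all genes). With arrays centred Mrc2 and Ddr1 overlapped, and 2 were separated and lower, Calcr and Itgav (16.7%, against 7.15%). Itgav, of the alphaV integrins, overlapped between the groups (-0.31, SE 0.23), but was separated and lower with arrays centred. The collagen VI receptor gene Antxr2 read 1490 and 1425 in cKO cells and 1233 and 1555 in control cells, a difference of 0.07 (SE 0.22). Itga1, of the alpha1 integrin, read 541 and 62.4 in cKO cells and 362 and 52.3 in control cells and so had the order of Col6a3.

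Genes for folding and modifying collagen had 5 of 15 higher and 10 lower (median -0.05). The median turned to 0.02 after quantile normalization and 0.04 with arrays centred. Of these 15, cKO was higher between the arrays numbered 1 and lower between those numbered 2 for 13, against 44.8% of all genes tested. That pattern was looked for after it was seen in the members. Serpinh1, the collagen chaperone HSP47, read 3897 and 3527 in cKO cells and 3110 and 5040 in control cells (-0.09, SE 0.23). The 4 members of the list with the smallest p were the prolyl hydroxylase gene P3h3 (-0.56, SE 0.53), the lysyl hydroxylase gene Plod3 (-0.30, SE 0.33), Crtap (-0.28, SE 0.36), of the prolyl 3-hydroxylation complex, and Fkbp14 (-0.18, SE 0.38), a prolyl isomerase gene. Only Plod3 was separated.

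Genes for export and propeptide processing had 3 of 10 higher and 7 lower (median -0.07, -0.02 after quantile normalization and 0.02 with arrays centred). Of the 10, 4 were separated and lower (40%, against 12.1% of all genes tested) and 1 was separated and higher (10%, against 8.53%). After quantile normalization these were 4 and 2, against 9.33% and 11.7% of all genes. With arrays centred they were 4 and 2, against 7.15% and 12%. The proprotein convertase genes Pcsk5 (246 and 137 in cKO cells, 513 and 490 in control cells, -1.44, SE 0.38) and Furin (1177 and 1009 in cKO cells, 1388 and 1432 in control cells, -0.37, SE 0.22) were among the lower ones. Bmp1, the procollagen C-proteinase gene, read 392 and 347 in cKO cells and 444 and 430 in control cells (-0.25, SE 0.30), and Klhl12, an adaptor for procollagen export, differed by -0.59 (SE 0.36). Pcolce2, which enhances that proteinase, was the separated gene on the higher side (0.57, SE 0.35).

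For Notch, the pathway that has been linked to collagen V in satellite cells, 10 of 19 were higher and 9 lower (median 0.01), with 3 separated and higher (Hey1, Dll1 and Notch2) and 2 separated and lower. These were 15.8% and 10.5%, against 8.53% and 12.1% of all genes. After quantile normalization they were 2 and 2 (10.5% each), against 11.7% and 9.33% of all genes. With arrays centred they were 5 (26.3%) and 2, against 12% and 7.15% of all genes. The target gene Hey1 read 1840 and 2300 in cKO cells and 1796 and 1447 in control cells (0.35, SE 0.22), the ligand gene Dll1 differed by 0.39 (SE 0.30) and the receptor gene Notch2 by 0.11 (SE 0.14). On the lower side were the DNA-binding factor gene Rbpj (-0.35, SE 0.27) and its coactivator gene Maml1 (-0.25, SE 0.20). Heyl read 1127 and 1136 in cKO cells and 1008 and 2420 in control cells, and like Col5a1 it had both cKO arrays inside the control pair. That held for 1 of the 19, against 23.4% of all genes tested.

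**Figure D4:**
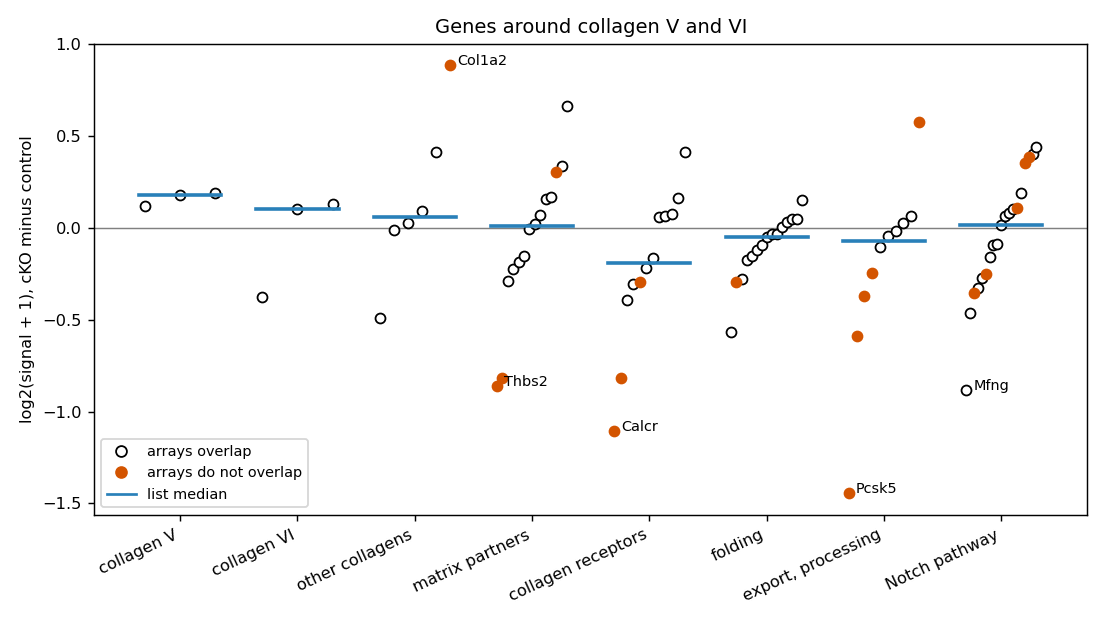
Difference in log2(signal + 1), cKO minus control, of each gene that passed the filter in the member lists and the 6 lists around them, with filled points where the cKO and control arrays did not overlap and a bar at each list's median. Collagen V and VI have 0 filled points, while Col1a2 lies at 0.88, Calcr at -1.11 and Pcsk5 at -1.44.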

How the data were processed

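Total RNA of sorted cells was labelled with biotin and hybridised to 1 array per sample, per the labels' protocols. Signal intensities, on a linear scale, were made with MAS5 by the authors, per the submitters' processing notes; their scaling target is not stated there. The platform's annotation gave 1 gene symbol to 34945 of the 45101 probe sets, several to 932 and none to 9160, and 64 were AFFX controls, which were left out. Updating symbols through the RefSeq mouse gene table changed 0 of them.

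Values were analysed as log2(signal + 1), a scale that understates changes of low signals, with no further normalization. Probe sets whose mean log2 value reached the median of all non-control probe sets (signal 63.9) were tested, 22519 in all, with 11 of 11 member probe sets among them. They were fitted with limma 3.58.1 in R 4.3.3 (trend, no block) and Benjamini-Hochberg adjustment over all probe sets; p-values are 2-sided. A gene's brightest probe set stood for it. Members and lists were chosen with earlier results of these data known. Named were all member probe sets, Calcr, up to 4 genes per list with the smallest limma p, the first markers of cell type lists and the 3 genes most like each member; other genes are examples. Steps were tested on simulated arrays with independent noise and no shared replicate effect, which checks the steps and not the power in these data. Alternatives were 2 other scalings, a pseudocount of 32, other filters, no trend, a replicate block, leaving out each array, and other uses of a gene's probe sets.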

Additional observations from a re-analysis of the deposited data

How the results depend on the processing

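No alternative called a collagen V or VI probe set (0 of 11 under each of the 11 settings of scaling, pseudocount, filter, trend, block and left-out array). At most 5 of all probe sets were called under any of these settings, so this count says little about the members. Scaling, pseudocount, filter and trend kept the sign of all 6 gene differences, but some sizes moved over 1.5 times. With arrays centred the differences were 0.21 for Col5a1, 0.27 for Col5a3, 0.20 for Col6a1 and 0.22 for Col6a2; after quantile normalization Col6a1 was at 0.16; and with the pseudocount of 32 Col6a3 was at -0.18. Leaving out 1 array turned every gene's sign at least once; with the lone sample assumed to vary like the other group, the ranges were -0.28 to 0.52 for Col5a1, -0.13 to 0.51 for Col5a2, -0.62 to 0.98 for Col5a3, -0.23 to 0.44 for Col6a1, -0.45 to 0.70 for Col6a2 and -1.95 to 1.20 for Col6a3. The low end for the 5 genes other than Col6a3 came without control replicate 1 and the high end without control replicate 2. The number of the 11 probe sets without overlap ran from 2 to 9 with 1 array left out. Separation then needs only that the lone array of a group lies outside the other pair. The share over all probe sets was not counted for these settings, so nothing is read from these numbers. The mean over probe sets moved Col5a2 to 0.38 and turned Col5a3 to -0.19, since its 2 probe sets disagree. The stricter filter left out Col6a3, and Col6a2 has no probe set without a suffix. The replicate numbers pair nothing by the labels. Across probe sets, log2 values of arrays with the same number correlated at 0.96 (replicates 1) and 0.95 (replicates 2). Those of the same group correlated at 0.91 (cKO) and 0.90 (control). Deviations of the arrays numbered 1 correlated at 0.43 across probe sets, and with the number as a replicate block 5 of all probe sets were called in place of 0 (Slc15a2, Laptm5, Pisd-ps3, Ilkap and 1 unnamed, chosen after their values were seen). Leaving out an array gave 0 to 5. At an unadjusted limma p under 0.05 there were 163 in the fit without the block and 473 with it. The block left the 6 gene differences as they were and made each SE smaller. For Col5a3 the SE was 0.24 in place of 0.46, and for Col6a3 0.41 in place of 1.04. Under quantile normalization control replicate 2 was at least 1.5-fold above control replicate 1 on 8 of the 11. With arrays centred on their median, Hspg2, Ddr1, Mrc2, Plod3 and Notch2 were no longer separated by genotype, while Itgav (lower) and Pcsk6, Jag1, Adam10 and Mib1 (higher) became so. With quantile normalization Hey1 was no longer separated, and Matn2 and Pcsk6 became so (higher).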
